A study of Mus musculus with 39 samples.

Results

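The 10 genes Abcc8, Kcnj11, Cacna1c, Cacna1d, Syt7, Sv2b, Ffar1, Glp1r, Gipr and Glud1 encode channels, vesicle proteins, receptors and 1 enzyme of glucose-stimulated insulin secretion. They were chosen by symbol, with earlier results of these data known. Their counts beside shares over all genes therefore describe these 10 genes and are no test of the set. Only probe sets annotated with exactly 1 gene symbol were used, and each of the 10 had a single such probe set among the 19938 genes measured. RNA from isolated pancreatic islets had been hybridized to 39 Affymetrix Mouse Gene 1.0 ST arrays in 10 groups. Pdx1-creLate mice of backcross generation N8 gave 4 arrays and their wild-type control littermates of the same backcross gave 4, and neither group was pregnant. C57bl6/J wild-type mice gave 3 arrays at pregnancy day 3.5, 4 each at days 6.5, 9.5, 12.5, 15.5 and 18.5, 4 at 10 days post partum during lactation, and 4 from non-pregnant females. In Pdx1-creLate mice a Pdx1 promoter fragment drives Cre, and a human growth hormone minigene is known to sit in that transgene. Xist averaged 4.25 ± 0.26 in Pdx1-creLate and 4.38 ± 0.49 in control littermate islets (log2 level, SD, n = 4 each), against 9.85 or more in every C57bl6/J group, so both backcross groups lay far below the C57bl6/J females. The sex of the backcross mice is not given in the sources used here, and their Xist levels are unlike those of the female islets. Ages and the number of mice behind each array are not given either. The arrays are labelled as biological replicates, and where mice were pooled the spread between arrays would be that between pools.

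Glucose that enters a beta cell is metabolised to ATP, which closes ATP-sensitive potassium (KATP) channels, depolarises the membrane and opens voltage-gated calcium channels. The calcium that enters drives insulin granules to fuse with the plasma membrane. Fatty acids and the gut hormones GLP-1 and GIP, acting on their own receptors, add to this response, and amino acid breakdown through glutamate dehydrogenase feeds it. During pregnancy, maternal islets are known to secrete more insulin under placental lactogen and prolactin.

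All values are log2 levels from robust multi-array average (RMA) as deposited, given to 1 decimal, and array medians lay between 5.8 and 6.0. A gene is called where limma's adjusted p was under 0.05 over all 19938 genes. Levels of different genes come from different probe sets and are not set against each other. Of the 10 genes, 9 lay in the brightest 25% of genes by mean level over all arrays, and Sv2b lay at percentile 54.6. The islet label held in every group: the beta-cell hormone genes Ins2 and Iapp averaged at least 12.5 and 13.65. The non-pregnant arrays were less even than the others for both. There Ins2 read 11.9 to 12.7 (SD 0.40) and Iapp 13.0 to 13.9 (SD 0.44), against an SD of at most 0.10 in any other group. The hormone genes of other islet cells Gcg (13.0 to 14.0, SD 0.50) and Sst (12.9 to 13.7, SD 0.40) were also least even there. Their SD was at most 0.14 and 0.28 in any other group. For Ppy the SD was 0.39 there and 0.54 at day 6.5. Arrays differed in exocrine RNA, with the mean of 18 acinar markers between 5.44 and 10.97, and in the spread of their values, with a standard deviation (SD) over genes of 1.72 to 1.95. Both were used as covariates in alternatives.

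The 10 genes varied by unequal amounts across the 10 group means. Sv2b had the widest range, 1.73 on the log2 scale between its lowest mean in Pdx1-creLate islets and its highest at pregnancy day 18.5, and 99.3% of all genes had a smaller range. Gipr followed with 0.93, Cacna1c with 0.82, Ffar1 with 0.70 and Syt7 with 0.63. Kcnj11 varied least, by 0.30, and only 17.9% of genes had a smaller range. Sv2b and Glp1r were also the only 2 members called higher in any comparison, both at day 18.5, and their start regions are therefore shown. Promoter windows from RefSeq on GRCm38.p6 were matched to 6 of the 10 genes, each 300 bases long, from 250 bases before to 50 after a transcription start. Sv2b has 4 such starts, of which the first and the most internal are printed here with the single window of Glp1r. Capitals mark exact matches, on either strand, to TTCNNNGAA (the motif of STAT factors, which act below the prolactin receptor), GGGCGG (the GC box) or TATAAA (the TATA box).
Sv2b, first start, chr7:75309213-75309512, minus strand: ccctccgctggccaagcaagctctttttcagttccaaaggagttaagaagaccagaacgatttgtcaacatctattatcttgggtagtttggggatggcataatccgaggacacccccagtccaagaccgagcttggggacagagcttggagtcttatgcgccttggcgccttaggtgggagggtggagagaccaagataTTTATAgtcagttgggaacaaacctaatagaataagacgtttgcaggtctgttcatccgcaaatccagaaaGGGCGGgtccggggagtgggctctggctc
Sv2b, internal start, chr7:75219970-75220269, minus strand: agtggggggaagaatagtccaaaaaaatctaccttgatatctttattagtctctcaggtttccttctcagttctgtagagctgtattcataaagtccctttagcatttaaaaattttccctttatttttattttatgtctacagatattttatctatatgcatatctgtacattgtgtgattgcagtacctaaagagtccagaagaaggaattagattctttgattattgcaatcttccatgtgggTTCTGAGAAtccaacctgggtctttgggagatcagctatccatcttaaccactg
Glp1r, chr17:30901617-30901916, plus strand: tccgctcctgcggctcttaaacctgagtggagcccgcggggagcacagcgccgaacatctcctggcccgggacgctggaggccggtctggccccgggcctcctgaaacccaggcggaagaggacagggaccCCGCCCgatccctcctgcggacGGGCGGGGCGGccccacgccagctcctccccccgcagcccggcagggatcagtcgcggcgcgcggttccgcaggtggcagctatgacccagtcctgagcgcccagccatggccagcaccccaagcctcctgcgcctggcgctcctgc
The first Sv2b window held 1 GGGCGG and 1 TATAAA match (as TTTATA on the printed strand), and the internal one held 1 TTCNNNGAA match. Of the 2 Sv2b windows not printed, 1 held a TATAAA match and the other none, and neither held TTCNNNGAA. A window of Cacna1c (chromosome 6, 118757925 to 118758224), a member called lower in pregnancy, also held 1 TTCNNNGAA match. The Glp1r window was 73.7% G and C and held 3 GGGCGG matches, of which 2 share a base and 1 lies on the other strand. Over the 6 genes 12 windows were searched. Among 32851 single RefSeq promoter windows of the same length, 8.3% held TTCNNNGAA, 35.7% held GGGCGG and 13.6% held TATAAA. These are letter matches and say nothing of binding.

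**Figure D1:**
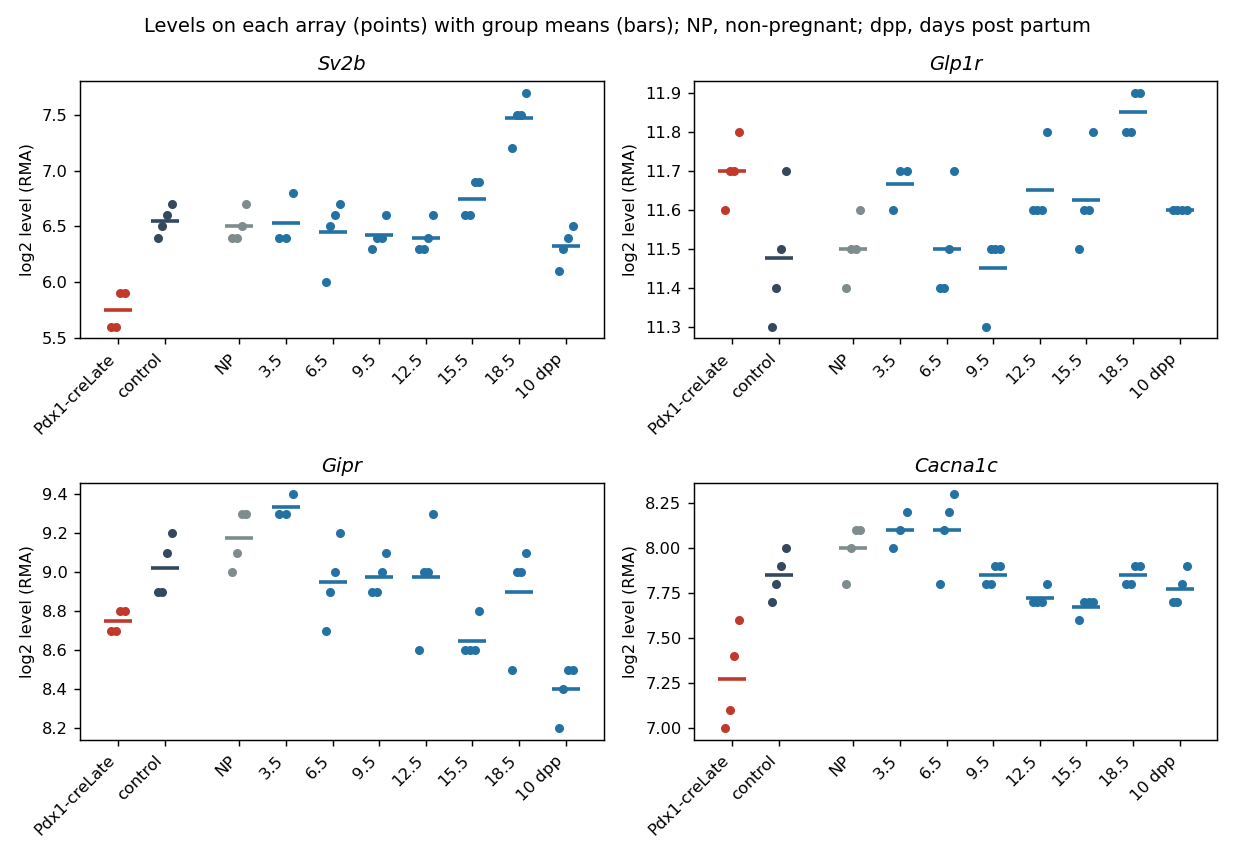
Log2 RMA levels of Sv2b, Glp1r, Gipr and Cacna1c in islets, 1 panel a gene; points are arrays (drawn in order of value within a group) and bars are group means, for Pdx1-creLate, control littermates and the C57bl6/J groups by pregnancy day. Sv2b stands at 7.2 to 7.7 at day 18.5 and at 5.6 to 5.9 in Pdx1-creLate islets, and Gipr is lowest at 10 days post partum, at 8.2 to 8.5.

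Setting Pdx1-creLate islets against control littermate islets shows how these genes stand in the transgenic line outside pregnancy. Of the 10 genes 5, namely Sv2b, Cacna1c, Syt7, Ffar1 and Glud1, fell and 0 rose, while 6.59% of all genes were called, 2.86% higher and 3.72% lower. The arrays of both groups did not overlap for 7 of the 10 genes, all lower in Pdx1-creLate islets, against 9.15% of all genes. The median log2 difference over the 10 genes was -0.34, against -0.03 over all genes and -0.03 over the brightest 25% of genes. In bulk islet RNA, fewer cells of a type and less RNA per cell cannot be told apart.

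The KATP channel is built from the sulfonylurea receptor Abcc8 (chromosome 7, 46104523 to 46180039) and the pore Kcnj11 (chromosome 7, 46097123 to 46100952), which are neighbours in the genome. Neither was called in the transgenic islets. Abcc8 read 11.1, 11.3, 11.1 and 11.1 in Pdx1-creLate islets and 11.2, 11.3, 11.3 and 11.4 in control littermate islets. These arrays overlapped, with a difference of -0.15 ± 0.09 (SE, adjusted p = 0.413, limma). Kcnj11 read 9.1, 9.1, 9.1 and 8.8 in Pdx1-creLate islets and 9.4, 9.2, 9.3 and 9.2 in control littermate islets. Every Pdx1-creLate array was below every control array, but the difference of -0.25 ± 0.10 did not pass over all genes (adjusted p = 0.173, limma). In 1 model of all 39 arrays the same difference was called (adjusted p = 0.0264).

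Of the L-type calcium channel genes, Cacna1c was called and Cacna1d was not. Cacna1c (chromosome 6, 118587240 to 119197384), a pore-forming subunit, read 7.4, 7.6, 7.1 and 7.0 in Pdx1-creLate islets and 7.9, 7.8, 8.0 and 7.7 in control littermate islets. The groups did not overlap and the gene was 1.49-fold lower in Pdx1-creLate islets, by -0.58 ± 0.13 (SE, adjusted p = 0.0119, limma). That call was lost without Pdx1-creLate replicate 3 (-0.52, adjusted p = 0.0562) or without control littermate replicate 3 (-0.53, adjusted p = 0.0537). Cacna1d (chromosome 14, 30039941 to 30491156), the other L-type pore subunit of the beta cell, read 8.3, 8.5, 8.4 and 8.2 in Pdx1-creLate islets and 8.5, 8.4, 8.7 and 8.5 in control littermate islets. The groups overlapped (-0.18 ± 0.10, adjusted p = 0.378, limma).

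Both vesicle proteins fell. Sv2b (chromosome 7, 75114894 to 75309262), a membrane glycoprotein of secretory vesicles, read 5.9, 5.6, 5.9 and 5.6 in Pdx1-creLate islets and 6.4, 6.5, 6.7 and 6.6 in control littermate islets. It was 1.74-fold lower in Pdx1-creLate islets, by -0.80 ± 0.11 (SE, adjusted p = 0.000213, limma), with no overlap between the groups. Syt7 (chromosome 19, 10388802 to 10453181), a calcium sensor of granule fusion, read 8.0, 8.3, 8.1 and 8.0 in Pdx1-creLate islets and 8.6, 8.4, 8.9 and 8.6 in control littermate islets. It was 1.44-fold lower in Pdx1-creLate islets, by -0.53 ± 0.11 (adjusted p = 0.0108, limma), again with no overlap. With the replicate number as a block, Syt7 had an adjusted p of 0.0629.

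Among the receptors, Ffar1 alone was called. Ffar1 (chromosome 7, 30860568 to 30861470), the receptor for long-chain fatty acids, read 10.1, 9.9, 9.9 and 9.9 in Pdx1-creLate islets and 10.4, 10.3, 10.6 and 10.4 in control littermate islets. It was 1.39-fold lower in Pdx1-creLate islets, by -0.48 ± 0.10 (SE, adjusted p = 0.00624, limma). Gipr (chromosome 7, 19156063 to 19170248), the GIP receptor, read 8.8, 8.7, 8.8 and 8.7 in Pdx1-creLate islets and 9.1, 8.9, 8.9 and 9.2 in control littermate islets. Its groups did not overlap but the difference of -0.28 ± 0.10 did not pass over all genes (adjusted p = 0.115, limma). Glp1r (chromosome 17, 30901867 to 30936510), the GLP-1 receptor, was the only member with a positive difference. It read 11.7, 11.6, 11.7 and 11.8 in Pdx1-creLate islets and 11.4, 11.3, 11.5 and 11.7 in control littermate islets, which overlapped (0.23 ± 0.10, adjusted p = 0.242, limma).

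Glud1 (chromosome 14, 34310727 to 34345033), mitochondrial glutamate dehydrogenase, was called near the threshold. It read 9.5, 9.4, 9.1 and 9.2 in Pdx1-creLate islets and 9.6, 9.7, 9.6 and 9.9 in control littermate islets. It was 1.32-fold lower in Pdx1-creLate islets, by -0.40 ± 0.11 (SE, adjusted p = 0.0431, limma), with no overlap. The call was lost when any 1 of 7 of the 8 arrays was left out, all but Pdx1-creLate replicate 1, with an adjusted p between 0.0599 and 0.136, and with the replicate number as a block (adjusted p = 0.109).

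**Figure D2:**
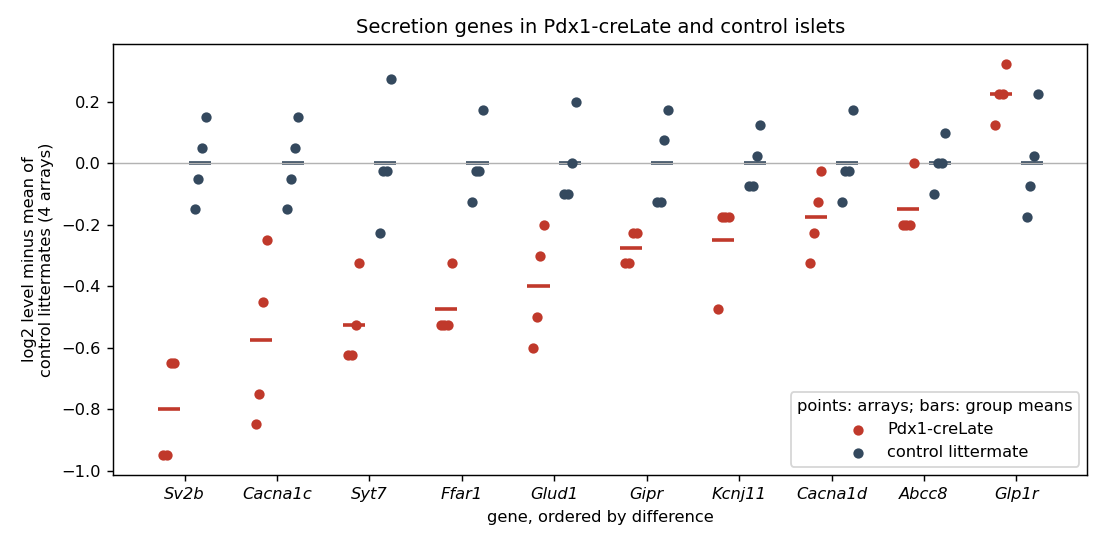
Log2 level of each gene on each array minus the mean of the 4 control littermate arrays, for Pdx1-creLate (left of each pair) and control littermate islets (right); points are arrays and bars are group means. For Sv2b, Cacna1c, Syt7, Ffar1, Glud1, Gipr and Kcnj11 every Pdx1-creLate point lies below every control point, and only Glp1r has a higher mean in Pdx1-creLate islets.

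Markers of islet cells moved with the same contrast. The mean of 9 beta-cell markers was 11.04 to 11.2 on Pdx1-creLate arrays and 11.3 to 11.34 on control littermate arrays, and 3 of the 9 were called lower and 1 higher. The mean of 4 alpha-cell markers was 10.38 to 10.7 on Pdx1-creLate arrays and 10.95 to 11.28 on control arrays, with 2 of 4 called lower. PP-cell markers were at 10.43 to 11.07 on Pdx1-creLate arrays and 11.47 to 11.63 on control arrays, with 3 of 3 called lower, and 1 of 3 delta-cell markers was called lower. Ins2 averaged 12.53 ± 0.10 in Pdx1-creLate islets and 12.60 ± 0.00 in control islets (SD, n = 4 each). With the beta-cell marker mean as a covariate, 0 of the 10 genes were called by limma (5 at an unadjusted p under 0.05), and 143 genes in all, against 1313 without it. In that fit the differences of the 5 genes were between -0.38 for Syt7 and -1.06 for Sv2b, with standard errors (SE) of 0.24 to 0.31. The ranges of that covariate did not overlap between the groups, so group and covariate were barely separable. The part of the other islet cell markers in the result was not tested.

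The pregnancy days ask when, over gestation, these genes depart from the non-pregnant level. The 6 days and 10 days post partum all share the same 4 non-pregnant arrays. Early pregnancy showed no called member. At day 3.5, 0 of the 10 genes were called by limma while 0.0451% of all genes were, 0.0201% higher and 0.0251% lower, and 2 members had an unadjusted p under 0.05, against 4046 of all genes. At day 6.5, 0 were called by limma while 0.622% of all genes were, 0.502% higher and 0.12% lower, and 1 member had an unadjusted p under 0.05. No member was free of overlap with non-pregnant arrays at either day, against 11.3% of all genes at day 3.5 and 2.49% at day 6.5. From day 9.5 to day 15.5 the called members were lower than in non-pregnant islets: Cacna1d at day 9.5, Cacna1c at day 12.5, and Gipr, Cacna1c and Abcc8 at day 15.5. At day 18.5 only Sv2b and Glp1r were called, both higher. The arrays did not overlap with the non-pregnant ones for 1 member at day 9.5 (13.3% of all genes), 1 at day 12.5 (6.85%), 4 at day 15.5 (8.81%) and 2 at day 18.5 (10.9%). Markers of islet cells moved at these days as well. At day 9.5, 1 of 4 alpha-cell markers was called lower, and of 9 beta-cell markers 4 were higher and 1 lower. At day 12.5, 1 of 4 alpha-cell and 1 of 3 PP-cell markers were called lower, and of 9 beta-cell markers 4 were higher and 0 lower. At day 15.5, 1 of 4 alpha-cell, 1 of 3 delta-cell and 1 of 3 PP-cell markers were called lower, and at day 18.5 the counts were 2, 1 and 1. Of 9 beta-cell markers 1 was higher and 1 lower at day 15.5, and 2 were higher and 1 lower at day 18.5. The part of these markers in the results was not tested. Without reference to non-pregnant islets, 8 of the 10 genes differed among the 6 days by limma's F-test, as did 38.6% of all genes. Kcnj11 (adjusted p = 0.765) and Syt7 (adjusted p = 0.0757) were the exceptions, and Syt7 passed without day 6.5 replicate 2 (adjusted p = 0.0337). The count was 6 after quantile normalization and 6 with array SD as a covariate, where Ffar1 and Glud1 were lost. Glud1 had F = 5.12 on the deposited values, 2.97 after quantile normalization (adjusted p = 0.0848) and 1.21 with array SD as a covariate (adjusted p = 0.518).

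**Figure D3:**
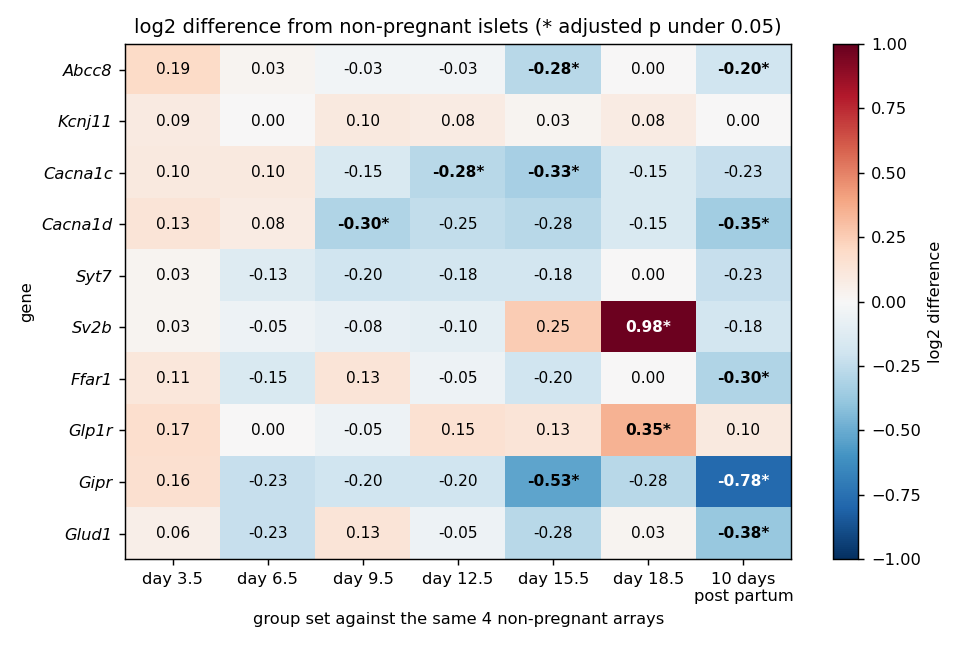
Log2 difference of each gene from the 4 non-pregnant arrays at 6 pregnancy days and at 10 days post partum, 1 cell a gene and group, red higher and blue lower; an asterisk and bold type mark an adjusted p under 0.05. Sv2b (0.98) and Glp1r (0.35) at day 18.5 are the only called rises, and Gipr at 10 days post partum (-0.78) is the largest fall.

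For the KATP channel, only the receptor subunit was called. Abcc8 averaged 11.48 ± 0.10 in non-pregnant islets, 11.67 ± 0.06 at day 3.5 (n = 3), 11.50 ± 0.08 at day 6.5, 11.45 ± 0.06 at both day 9.5 and day 12.5, 11.20 ± 0.08 at day 15.5 and 11.48 ± 0.05 at day 18.5 (SD, n = 4 unless stated). At day 15.5 its arrays read 11.3, 11.2, 11.1 and 11.2, all below the 11.4, 11.6, 11.5 and 11.4 of non-pregnant islets. It was 1.21-fold lower there, by -0.28 ± 0.07 (SE, adjusted p = 0.00667, limma), while 8.23% of all genes were called at that day, 3.7% higher and 4.53% lower. By day 18.5 it was back at the non-pregnant mean, with a difference of 0.00 ± 0.07. Kcnj11 stayed between 8.98 and 9.08 at every day and in non-pregnant islets, and no difference between neighbouring means in that span exceeded the larger SD of the pair.

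The calcium channel genes were lower in mid-pregnancy. Cacna1d averaged 8.58 ± 0.10 in non-pregnant islets, 8.70 ± 0.10 at day 3.5 (n = 3), 8.65 ± 0.24 at day 6.5, 8.28 ± 0.10 at day 9.5, 8.33 ± 0.15 at day 12.5, 8.30 ± 0.08 at day 15.5 and 8.43 ± 0.05 at day 18.5. At day 9.5 its arrays read 8.3, 8.2, 8.2 and 8.4, all below the 8.7, 8.5, 8.5 and 8.6 of non-pregnant islets (-0.30 ± 0.09, adjusted p = 0.0242, limma). At that day 19.4% of all genes were called, 11.6% higher and 7.74% lower. The Cacna1d call was lost without day 9.5 replicate 2 or 3 or non-pregnant replicate 1 or 4, with an adjusted p between 0.0571 and 0.0729. Cacna1c averaged 8.0 ± 0.14 in non-pregnant islets, 8.10 ± 0.10 at day 3.5 (n = 3), 8.10 ± 0.22 at day 6.5, 7.85 ± 0.06 at day 9.5, 7.73 ± 0.05 at day 12.5, 7.68 ± 0.05 at day 15.5 and 7.85 ± 0.06 at day 18.5. It thus lay lowest at days 12.5 and 15.5. At day 15.5 its arrays read 7.7, 7.7, 7.6 and 7.7, all below the 8.0, 8.1, 7.8 and 8.1 of non-pregnant islets (-0.33 ± 0.08, adjusted p = 0.0104, limma). The day 12.5 call (-0.28 ± 0.08, adjusted p = 0.0437), with 5.27% of all genes called, 4.08% higher and 1.19% lower, rested on single arrays. It was lost when any 1 of 7 of the 8 arrays was left out, all but non-pregnant replicate 3, with an adjusted p between 0.0534 and 0.156.

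The largest pregnancy change among the 10 genes was that of Sv2b. Its mean was 6.50 ± 0.14 in non-pregnant islets, 6.53 ± 0.23 at day 3.5 (n = 3), 6.45 ± 0.31 at day 6.5, 6.43 ± 0.13 at day 9.5, 6.40 ± 0.14 at day 12.5, 6.75 ± 0.17 at day 15.5 and 7.48 ± 0.21 at day 18.5. On day 18.5 its arrays read 7.7, 7.2, 7.5 and 7.5, against 6.4, 6.7, 6.5 and 6.4 in non-pregnant islets. It was 1.97-fold higher at day 18.5, by 0.98 ± 0.13 (SE, adjusted p = 1.38e-06, limma), and every day 18.5 array was above every array of the other groups. At that day 11.1% of all genes were called, 8.59% higher and 2.5% lower. The day 15.5 difference of 0.25 ± 0.13 did not pass (adjusted p = 0.255). Over the alternatives the day 18.5 difference lay between 0.89 and 1.08 and was called in each of 20. Syt7 averaged 8.5 to 8.73 over the 6 days and 8.70 ± 0.14 in non-pregnant islets, and was called at none of them, its lowest adjusted p being 0.0732 at day 9.5, where it passed without day 9.5 replicate 1 (adjusted p = 0.0489).

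The receptors took different courses. Glp1r averaged 11.50 ± 0.08 in non-pregnant islets, 11.67 ± 0.06 at day 3.5 (n = 3), 11.50 ± 0.14 at day 6.5, 11.45 ± 0.10 at day 9.5, 11.65 ± 0.10 at day 12.5, 11.63 ± 0.13 at day 15.5 and 11.85 ± 0.06 at day 18.5. On day 18.5 its arrays read 11.9, 11.9, 11.8 and 11.8, all above the 11.4, 11.5, 11.6 and 11.5 of non-pregnant islets, and it was 1.27-fold higher (0.35 ± 0.07, adjusted p = 0.00156, limma). Glp1r is bright, and in the brightest 25% of genes 21.8% were called higher at day 18.5. After quantile normalization of all arrays its difference was 0.19 and no longer passed (adjusted p = 0.0645), and with the beta-cell marker mean as a covariate it was 0.27 (adjusted p = 0.0502).

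Gipr moved the other way. It averaged 9.18 ± 0.15 in non-pregnant islets, 9.33 ± 0.06 at day 3.5 (n = 3), 8.95 ± 0.21 at day 6.5, 8.98 ± 0.10 at day 9.5, 8.98 ± 0.29 at day 12.5, 8.65 ± 0.10 at day 15.5 and 8.90 ± 0.27 at day 18.5. On day 15.5 its arrays read 8.8, 8.6, 8.6 and 8.6, all below the 9.3, 9.3, 9.1 and 9.0 of non-pregnant islets. It was 1.44-fold lower there (-0.53 ± 0.12, adjusted p = 0.00484, limma), and this was called in each of 20 alternatives. At day 18.5 one array read 8.5 and the others 9.0 to 9.1, and the difference of -0.28 ± 0.12 did not pass (adjusted p = 0.149). After quantile normalization it was -0.41 and was called (adjusted p = 0.0343), so that the 2 members called at day 18.5 were then Sv2b and Gipr. Ffar1 averaged 9.83 to 10.15 over the 6 days and 10.03 ± 0.15 in non-pregnant islets and was called at none, although it differed among the days by the F-test (adjusted p = 0.0239). With array SD as a covariate its F was 0.901, against 3.96 without it, and the call was lost (adjusted p = 0.656). It was also lost after quantile normalization (adjusted p = 0.0796), with the acinar covariate (adjusted p = 0.0767), with the beta-cell covariate (adjusted p = 0.0604), without day 9.5 replicate 4 (adjusted p = 0.0561) and without day 15.5 replicate 2 (adjusted p = 0.0588). Glud1 averaged 9.58 ± 0.19 in non-pregnant islets and 9.30 ± 0.14 at day 15.5, its lowest day, where the difference of -0.28 ± 0.10 did not pass (adjusted p = 0.0838, limma). Without non-pregnant replicate 4, which read 9.3 against 9.6 to 9.7 on the other 3, that difference was -0.37 and was called (adjusted p = 0.0162).

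Over mid-pregnancy, the mean of days 9.5, 12.5 and 15.5, 3 of the 10 genes were lower than in non-pregnant islets and 0 higher, while 9.24% of all genes were called, 6.72% higher and 2.52% lower. Of the 10, only Cacna1d had no overlap with the non-pregnant arrays, against 2.74% of all genes. They were Gipr (-0.31 ± 0.10, adjusted p = 0.0458), Cacna1d (-0.28 ± 0.08, adjusted p = 0.0167) and Cacna1c (-0.25 ± 0.07, adjusted p = 0.0129, all limma). The median over the 10 genes was -0.09, against -0.01 over all genes. Glp1r (0.08 ± 0.06), Kcnj11 (0.07 ± 0.06) and Sv2b (0.03 ± 0.10) had positive differences that did not pass. All 3 calls were lost when arrays were centred on their medians, at -0.22 for Cacna1c (adjusted p = 0.0664), -0.24 for Cacna1d (adjusted p = 0.0518) and -0.28 for Gipr (adjusted p = 0.0907). Each also rested on single arrays: Cacna1c was lost without non-pregnant replicate 2 (adjusted p = 0.083) or 4 (adjusted p = 0.0803), Cacna1d without non-pregnant replicate 1 (adjusted p = 0.0984) or 4 (adjusted p = 0.0582), and Gipr in 12 of 16 such fits (adjusted p up to 0.177, without non-pregnant replicate 2). The 12 were those without day 9.5 replicates 1 to 3, day 12.5 replicates 1, 3 and 4, day 15.5 replicates 2 to 4, or non-pregnant replicates 1 to 3. Beta-cell markers averaged 11.42, 11.44 and 11.32 at days 9.5, 12.5 and 15.5 and 11.23 in non-pregnant islets, where 1 array was at 11.06. With that mean as a covariate 0 of the 10 were called by limma, and 3 had an unadjusted p under 0.05. The differences were then -0.26 ± 0.09 for Cacna1c, -0.26 ± 0.11 for Cacna1d and -0.28 ± 0.14 for Gipr (SE).

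At 10 days after birth, in lactating mice, 5 of the 10 genes were lower than in non-pregnant islets and 0 higher, while 12.2% of all genes were called, 4.46% higher and 7.78% lower. Gipr and Cacna1d had no overlap between the groups, against 9.4% of all genes, and the brightest 25% of genes had 15.4% called lower. Gipr changed most. It read 8.2, 8.5, 8.4 and 8.5 at 10 days post partum and 9.3, 9.3, 9.1 and 9.0 in non-pregnant islets, with no overlap. It was 1.71-fold lower after birth (-0.78 ± 0.12, adjusted p = 4.79e-05, limma) and was called in each of 20 alternatives, where the difference lay between -0.83 and -0.71. This was the lowest Gipr mean of all 10 groups, and the gap of 0.25 to the next lowest, day 15.5, exceeded the larger SD of the pair, 0.14.

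The other 4 calls after birth were smaller. Glud1 read 9.1, 9.2, 9.3 and 9.2 at 10 days post partum and 9.6, 9.7, 9.7 and 9.3 in non-pregnant islets (-0.38 ± 0.10, adjusted p = 0.0112, limma), and the groups met at 9.3. Cacna1d read 8.1, 8.1, 8.3 and 8.4 at 10 days post partum and 8.7, 8.5, 8.5 and 8.6 in non-pregnant islets, with no overlap (-0.35 ± 0.09, adjusted p = 0.0124, limma). Ffar1 read 9.6, 9.7, 9.8 and 9.8 at 10 days post partum and 10.1, 10.1, 10.1 and 9.8 in non-pregnant islets (-0.30 ± 0.09, adjusted p = 0.0284, limma), meeting at 9.8. Abcc8 read 11.2, 11.2, 11.4 and 11.3 at 10 days post partum and 11.4, 11.6, 11.5 and 11.4 in non-pregnant islets (-0.20 ± 0.07, adjusted p = 0.0431, limma), meeting at 11.4. Single arrays decided several of these calls. Glud1 was lost without non-pregnant replicate 2 (adjusted p = 0.0506). Cacna1d was lost without post partum replicate 2 (adjusted p = 0.0525) or non-pregnant replicate 1 (adjusted p = 0.0537). Ffar1 was lost without post partum replicate 1 or 2 or non-pregnant replicate 1, 2 or 3 (adjusted p between 0.0659 and 0.0946), and Abcc8 without post partum replicate 1, 2 or 4 or non-pregnant replicate 2 or 3 (adjusted p between 0.0702 and 0.167). Cacna1c passed without post partum replicate 3 (adjusted p = 0.0393) or non-pregnant replicate 3 (adjusted p = 0.0286), and Syt7 without post partum replicate 3 (adjusted p = 0.0333) or non-pregnant replicate 4 (adjusted p = 0.0396). Sv2b, Cacna1c, Syt7, Glp1r and Kcnj11 were not called with all arrays, with Kcnj11 at a difference of 0.00 ± 0.07. Array SD was 1.73 to 1.82 after birth and 1.76 to 1.84 in non-pregnant islets. With that SD as a covariate only Gipr was called. Abcc8 was then at -0.19 (adjusted p = 0.0855), Cacna1d at -0.31 (adjusted p = 0.0528), Glud1 at -0.29 (adjusted p = 0.079) and Ffar1 at -0.17 (adjusted p = 0.233). Of other cells, 2 of 8 endothelial, 4 of 9 stellate-cell, 2 of 4 alpha-cell and 2 of 3 delta-cell markers were called lower after birth, and their part in the result was not tested.

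The step across birth sets 10 days post partum against day 18.5, without the non-pregnant arrays. Here 7 of the 10 genes were called lower and 0 higher, but 30.2% of all genes were called, 11.8% higher and 18.4% lower, and in the brightest 25% of genes 41.3% were called lower with a median difference of -0.18. The median over the 10 genes was -0.24, and 5 of them had no overlap between the groups, against 17.4% of all genes. Sv2b read 6.4, 6.3, 6.5 and 6.1 at 10 days post partum and 7.7, 7.2, 7.5 and 7.5 at day 18.5. It was 2.22-fold lower after birth (-1.15 ± 0.13, adjusted p = 3.32e-06, limma) and returned to a level that overlapped that of non-pregnant islets. The other calls were Gipr (-0.50 ± 0.12), Glud1 (-0.40 ± 0.10), Ffar1 (-0.30 ± 0.09), Glp1r (-0.25 ± 0.07), Syt7 (-0.23 ± 0.08) and Abcc8 (-0.20 ± 0.07). Glp1r read 11.6 on all 4 post partum arrays, below the 11.8 to 11.9 of day 18.5. Array SD moved with this step, at 1.73 to 1.82 after birth and 1.85 to 1.91 at day 18.5, without overlap.

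**Figure D4:**
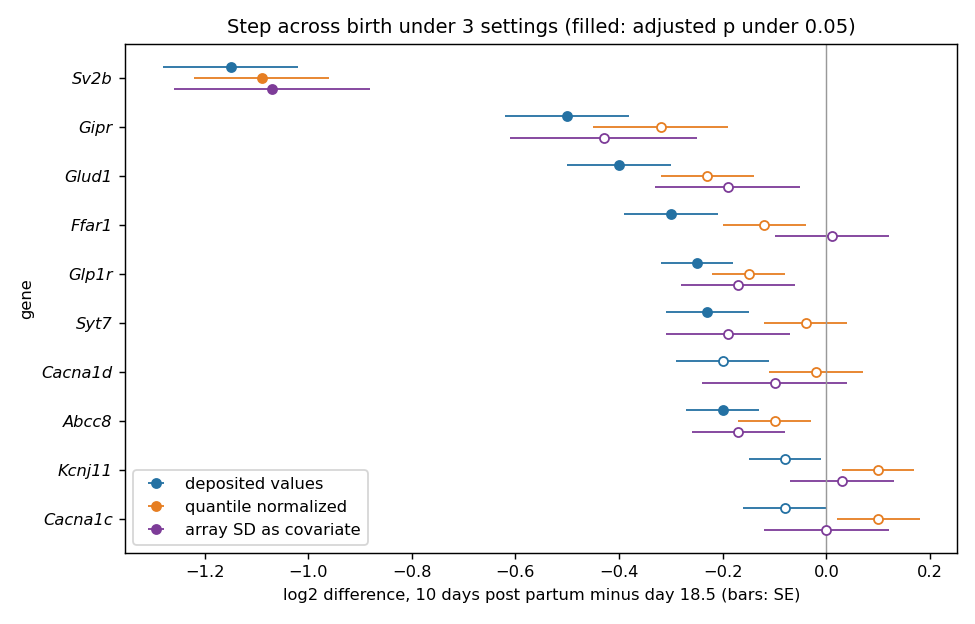
Log2 difference between 10 days post partum and pregnancy day 18.5 for each gene, with SE as bars, under the deposited values, after quantile normalization of all 39 arrays and with array SD as a covariate; filled points have an adjusted p under 0.05. Sv2b stays filled, at -1.15, -1.09 and -1.07, and the other 6 calls on the deposited values become open under both other settings.

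Sv2b was the only member called in all 3 of those settings, at -1.15 on the deposited values, -1.09 after quantile normalization and -1.07 with array SD as a covariate. The other 6 were called in neither alternative, and Ffar1 turned to 0.01 with array SD as a covariate (adjusted p = 0.984). In that fit Gipr was at -0.43 ± 0.18, Syt7 at -0.19 ± 0.12, Abcc8 at -0.17 ± 0.09, Glp1r at -0.17 ± 0.11 and Glud1 at -0.19 ± 0.14, with larger standard errors than on the deposited values. After quantile normalization the differences were smaller, at -0.32 for Gipr, -0.04 for Syt7, -0.10 for Abcc8, -0.15 for Glp1r, -0.23 for Glud1 and -0.12 for Ffar1. After quantile normalization 1979 genes in all were called, and with array SD as a covariate 12, against 6014 on the deposited values. Endothelial markers also moved with the step: 7 of 8 were called lower after birth, and their mean was 7.91 to 8.09 after birth and 8.33 to 8.48 at day 18.5. Of 9 stellate-cell markers 5 were called lower. Their part in the result was not tested. Abcc8 was lost without day 18.5 replicate 3 or 4 or post partum replicate 1 or 2 (adjusted p between 0.056 and 0.0748), Ffar1 without day 18.5 replicate 4 (adjusted p = 0.0741) or post partum replicate 1 (adjusted p = 0.0544), and Syt7 without day 18.5 replicate 1, 3 or 4 or post partum replicate 1, 2 or 4 (adjusted p between 0.0595 and 0.0919).

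Whether the transgenic line and mid-pregnancy changed these genes by different amounts was tested directly in 1 model of all 39 arrays, and the 2 effects share no array. Of the 10 genes 2 differed, Sv2b and Ffar1, both lower for the transgene, while 5.48% of all genes were called, 1.63% higher and 3.86% lower. Sv2b had a transgene effect of -0.80 and a mid-pregnancy effect of 0.03, and differed by -0.83 ± 0.16 (SE, adjusted p = 0.000659, limma). Ffar1 had a transgene effect of -0.48 and a mid-pregnancy effect of -0.04, and differed by -0.43 ± 0.12 (adjusted p = 0.0188, limma). With the beta-cell marker mean as a covariate neither was called (Sv2b -0.67 ± 0.26, adjusted p = 0.3). The ranges of that covariate did not overlap between Pdx1-creLate and control littermate arrays. The Ffar1 call was also lost without control littermate replicate 3 (-0.38, adjusted p = 0.0618) or non-pregnant replicate 4 (-0.36, adjusted p = 0.0811). For Cacna1c, which fell in both, the difference of -0.33 ± 0.13 did not pass (adjusted p = 0.142). For Gipr it was 0.03 ± 0.15 (adjusted p = 0.942) and for Cacna1d 0.10 ± 0.12 (adjusted p = 0.739). The differences of 4 more genes did not pass either, namely Kcnj11 (-0.32 ± 0.10, adjusted p = 0.054), Syt7 (-0.34 ± 0.12, adjusted p = 0.078), Glud1 (-0.33 ± 0.13, adjusted p = 0.154) and Glp1r (0.15 ± 0.10, adjusted p = 0.481). Kcnj11 became called without Pdx1-creLate replicate 1 or 2, control littermate replicate 2 or day 15.5 replicate 2 (adjusted p between 0.0422 and 0.0496), Syt7 without Pdx1-creLate replicate 2, control littermate replicate 2 or non-pregnant replicate 1 (adjusted p between 0.0248 and 0.0319), and Cacna1c without Pdx1-creLate replicate 2 (adjusted p = 0.0242). With day 18.5 in place of mid-pregnancy, chosen after seeing the data, the Sv2b difference was -1.78 ± 0.18 (adjusted p = 2.74e-09), and Syt7 and Ffar1 were called as well. The backcross arrays and the C57bl6/J arrays differ in strain background and in Xist level, and so possibly in sex, as well. These cannot be told apart from the effects.

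For the 7 genes whose group means spanned at least 0.5, the genes with the most similar pattern were sought as the smallest root mean square difference between centred means of the 10 groups. This measure is not scaled to a gene's range, so its values are not set against each other between genes. Sv2b, with a range of 1.73, was nearest to Slc18a3 at 0.221 and Sncg at 0.232, whose own ranges were smaller, at 1.03 and 1.3. Gipr was nearest to Kif12 at 0.073 and Hap1 at 0.080, and Ffar1 to Armcx6 at 0.061 and Sowahc at 0.066. Cacna1c was nearest to Fnip2 and Nfatc2, both at 0.052, Syt7 to Prkca at 0.044 and Arrb2 at 0.053, Glud1 to Gucy1b1 at 0.050 and Septin10 at 0.052, and Abcc8 to Nisch at 0.036 and Hmgxb3 at 0.041. These values are descriptions over 10 group means, and the genes compared were read on the same arrays with the same normalization.

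Other genes of the same steps were read from 4 lists, chosen with earlier results of these data known. Their counts stand beside shares over all genes of 2.86% higher and 3.72% lower for the transgene, 6.72% higher and 2.52% lower in mid-pregnancy, and 4.46% higher and 7.78% lower at 10 days post partum. Of 16 genes of glucose entry and metabolism, 1 rose and 3 fell in Pdx1-creLate islets, with a median of -0.06 against -0.03 over all genes. Gpd2, the mitochondrial glycerol phosphate dehydrogenase, fell by 1.15 (adjusted p = 4.05e-06, limma), Glul, glutamine synthetase, by 0.93, and Slc2a2, the beta-cell glucose transporter, by 0.58, while Me1, malic enzyme, rose by 0.73. In mid-pregnancy 5 of these 16 rose and 1 fell against non-pregnant islets: the shuttle enzymes Mdh1 (0.37) and Got1 (0.33) and the islet glucose-6-phosphatase G6pc2 (0.31) rose, and Glul fell by 0.40. At 10 days post partum 3 rose, Me1, Mdh1 and Got1 (0.30 to 0.35), and Glul fell by 0.43.

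Of 23 other ion channel genes, 1 rose and 3 fell in Pdx1-creLate islets, with a median of -0.10 against -0.03 over all genes, of which 2.86% rose and 3.72% fell. The sodium channel Scn9a rose by 1.48 (adjusted p = 6.9e-08, limma), and the potassium channels Kcnk16 and Kcnn3 and the cation channel Trpm4 fell by 1.08, 0.65 and 0.43. Scn9a also rose in mid-pregnancy (0.53) and at 10 days post partum (0.55). The calcium channel genes Cacna2d1 and Cacna1a fell in mid-pregnancy by 0.33 and 0.24, the only 2 of the 23 that fell. At 10 days post partum 5 of 23 fell, against 7.78% of all genes and 15.4% of the brightest 25%, among them Kcnn3 (-0.55), Cacna1a (-0.35) and Kcnk3 (-0.33).

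Of 28 other vesicle and exocytosis genes, 0 rose and 4 fell in Pdx1-creLate islets, with a median of -0.10 against -0.03 over all genes, of which 2.86% rose and 3.72% fell. They were the plasma membrane syntaxin Stx4a (-0.40), the priming factor Unc13a (-0.38), the calcium sensor Doc2b (-0.35) and the granule protein Sytl4 (-0.33), all with an adjusted p between 0.0154 and 0.049 (limma). In mid-pregnancy 4 rose and 2 fell, with Rab3d (0.76, adjusted p = 1.09e-09), Rab3a (0.30) and Syt4 (0.23) higher and Doc2b (-0.30) lower. At 10 days post partum Rab3d (0.55) and Rab3a (0.23) were the 2 that rose, and Doc2b (-0.38) and Napa (-0.25) the 2 that fell.

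Of 32 other receptor and cAMP signalling genes, 2 rose and 6 fell in Pdx1-creLate islets, with a median of -0.13 against -0.03 over all genes, of which 2.86% rose and 3.72% fell. The VIP receptor Vipr1 fell by 1.05 and the purine receptor P2ry1 by 0.90, while the lipid receptor Gpr119 rose by 0.88 and the inhibitory G protein subunit Gnai2 by 0.68. In mid-pregnancy 5 rose and 5 fell, with Gpr119 (0.68), the short-chain fatty acid receptor Ffar2 (0.62) and Gnai2 (0.43) higher and P2ry1 (-0.59) lower. At 10 days post partum 3 rose and 5 fell, with P2ry1 (-0.83), Vipr1 (-0.45) and the adenylyl cyclase Adcy6 (-0.43) lower and Ffar2 (0.40) higher.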

How the data were processed

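Islet RNA was measured on 39 arrays, with group and replicate read from the titles. The deposited values are log2 levels with 1 decimal, made by the authors with RMA in Affymetrix Expression Console, per the submitters' processing notes; RMA corrects background, normalizes quantiles and summarises probe sets, and which arrays were normalized together is not given in the sources used here. Of 35556 probe sets, 21789 had 1 gene symbol, 1621 several and 12146 none; the highest-mean probe set per symbol gave 19938 genes. Positions are RefSeq's for GRCm38.p6. The number of arrays limits precision, and read depth does not apply.

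Group means were fitted with limma 3.58.1 (lmFit and eBayes, R 4.3.3), two-sided, with p-values adjusted by Benjamini-Hochberg across the 19938 genes and a threshold of 0.05. The transgene comparison used its 8 arrays, the pregnancy and post partum comparisons 1 model of the 31 C57bl6/J arrays, and the difference of effects all 39. No filter on low values was applied. The fit was run on simulated data, with each gene drawn independently, for the transgene, day 18.5, post partum and birth comparisons only. Tables were made with Python 3.11.15, pandas 2.3.3 and matplotlib 3.10.9. The members, the 4 pathway lists and the marker lists were chosen with earlier results of these data known. From each pathway list, up to 4 called genes with the largest changes are named in 3 comparisons, transgene, mid-pregnancy and post partum. Alternatives were quantile normalization, median centring, a trended and robust variance, weights for arrays, averaging all probe sets of a gene, leaving out the dimmest 25% of genes, a covariate (acinar marker mean or array SD), a block for the replicate number, other sets of arrays in the fit, and leaving out each array. A beta-cell marker covariate and day 18.5 in the difference were added after seeing the data.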

Additional observations from a re-analysis of the deposited data

Results flagged for a closer look

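Sv2b and Ffar1 differed between the transgene and mid-pregnancy comparisons in the test of the difference itself, by -0.83 for Sv2b and -0.43 for Ffar1 on the log2 scale. Neither was called with the beta-cell marker mean as a covariate. The ranges of that covariate did not overlap between Pdx1-creLate and control littermate arrays. With it the SE rose from 0.16 to 0.26 for Sv2b and from 0.12 to 0.19 for Ffar1. The Ffar1 call also rested on single arrays. Ffar1 had its highest group mean in control littermates, 10.43, against 9.95 in Pdx1-creLate and 10.03 in non-pregnant islets. Strain background and Xist level, and so possibly sex, also differ between the backcross and C57bl6/J arrays and cannot be told apart from the effects.

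Among 90 sets of 4 arrays (10 genes in 9 groups), 19 held 1 array that stood apart from the other 3 by Dixon's criterion, which chance alone meets in about 1 of 20 sets. In 18 of the 19 the other 3 arrays read the same value to the deposited decimal, so that any step away meets the criterion, and in 8 the step was 0.1. In Pdx1-creLate islets these were Abcc8 replicate 2 at 11.3, Kcnj11 replicate 4 at 8.8 and Ffar1 replicate 1 at 10.1. At day 9.5 they were Kcnj11 replicate 3 at 9.0 and Glp1r replicate 2 at 11.3. At day 12.5 they were Cacna1c replicate 2 at 7.8, Cacna1d replicate 1 at 8.1, Ffar1 replicate 4 at 9.9, Glp1r replicate 4 at 11.8 and Glud1 replicate 1 at 9.6. At day 15.5 they were Cacna1c replicate 3 at 7.6, Ffar1 replicate 2 at 9.6 and Gipr replicate 1 at 8.8. At day 18.5 they were Abcc8 replicate 1 at 11.4, Kcnj11 replicate 4 at 9.2, Cacna1d replicate 2 at 8.5 and Gipr replicate 1 at 8.5. In non-pregnant islets they were Kcnj11 replicate 4 at 8.9 and Ffar1 replicate 4 at 9.8. The Gipr array at day 18.5 lay 0.5 below the nearest of the other 3, the widest such gap.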

How the results depend on the processing

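Of 37 called results for single genes, 11 were called under every alternative: Sv2b at day 18.5 and across birth, Gipr and Cacna1c at day 15.5, Gipr at 10 days post partum, and the F-test among days for Abcc8, Cacna1c, Cacna1d, Sv2b, Glp1r and Gipr. The other 26 were lost under at least 1, and 17 of 83 results not called were gained under at least 1. Of the called results 1 reversed, Ffar1 across birth with array SD as a covariate (0.01). Of the 83 not called, 27 changed sign under at least 1 alternative, among them Kcnj11 and Cacna1c across birth, which were 0.10 each after quantile normalization. The cause of these shifts was not tested. Deposited values with 1 decimal limit what can be told of differences near 0.1.

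The number of the 10 genes called by limma moved as follows; where it reached 0, the number with an unadjusted p under 0.05 is given. For the transgene (5), it was 3 with the replicate block (934 genes in all) and 0 (unadjusted 5) with the beta-cell covariate (143 genes in all, against 1313); a single model of all 39 arrays called 2484 genes. For day 9.5 (1), it was 4 after quantile normalization, 0 (3) after median centring, 0 (2) with array SD and 0 (1) with the beta-cell covariate, where 2347, 4249, 793 and 733 genes in all were called, against 3864. For day 12.5 (1), it was 2 after quantile normalization and 0 after median centring (2), with the acinar covariate (3), with the replicate block (3), with all 39 arrays (2), with only the groups compared (2) and with the beta-cell covariate (1). For day 15.5 (3), it was 5 with a trended and robust variance and 5 with array weights. For day 18.5 (2), it was 1 with the beta-cell covariate. For mid-pregnancy (3), it was 5 after quantile normalization, 0 (4) after median centring and 0 (3) with the beta-cell covariate. For 10 days post partum against non-pregnant (5), it was 1 with array SD and 3 with only the groups compared. For the step across birth (7), it was 1 after quantile normalization and 1 with array SD. For the difference of effects (2), it was 4 after median centring and 0 (3) with the beta-cell covariate.

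Leaving out 1 array at a time gave 3 to 5 genes for the transgene, 0 to 2 at day 9.5, 0 to 1 at day 12.5, 3 to 4 at day 15.5, 2 to 2 at day 18.5, 1 to 3 for mid-pregnancy, 2 to 7 for 10 days post partum against non-pregnant, 4 to 7 across birth, 1 to 5 for the difference of effects and 7 to 9 for the F-test (8 with all arrays, and 6 after quantile normalization or with array SD). At days 3.5 and 6.5 it was 0 under every alternative, with 2 and 1 members at an unadjusted p under 0.05 in the fit reported above.

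Blocking on the replicate number, which does not pair arrays by the correlation check (7 of 39 arrays correlated best with their own number), changed no other call count by over 1.5 times; it ended the calls of Syt7 (adjusted p = 0.0629) and Glud1 (adjusted p = 0.109) for the transgene, Cacna1c at day 12.5 (adjusted p = 0.0587) and Abcc8 at 10 days post partum (adjusted p = 0.0504).

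The number of all genes called also moved by over 1.5 times. With the beta-cell covariate it was 373 at day 12.5 (against 1051), 1070 at day 18.5 (against 2210), 732 in mid-pregnancy (against 1843) and 189 for the difference of effects (against 1093). It was 696 at day 12.5 after median centring, 1174 at day 18.5 with array SD, 1015 at day 15.5 (against 1641) and 1220 at 10 days post partum (against 2441) with only the groups compared. For the F-test (7697) it was 5099 after quantile normalization and 3687 with array SD, and across birth (6014) 1979 and 12. At day 3.5 (9) it lay between 0 and 321 and at day 6.5 (124) between 28 and 221. Single arrays moved it to 2268, 1973 or 1930 at day 9.5 (without day 9.5 replicate 3 or 4 or non-pregnant replicate 4), 1433 at day 18.5 (without its replicate 4), 1541 at 10 days post partum against non-pregnant (without non-pregnant replicate 2) and 3637 or 3553 across birth (without replicate 4 of day 18.5 or of 10 days post partum).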
